A study of Mus musculus with 12 samples.

Results

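Auditory nerve of adult mice was compared 3 days after a brief exposure of the cochlea to ouabain, an inhibitor of the sodium-potassium ATPase, with nerve from untreated ears. The comparison was between 6 of the 12 arrays of injured and control nerve, namely the 3 ouabain arrays and the 3 control arrays of day 3, chosen by their titles. The arrays of day 7 also entered the estimate of spread and the choice of probe set. All mice were CBA/CaJ of both sexes, aged 8 to 12 weeks. In the ouabain group, the right ear was opened by surgery and 3 mM ouabain was placed at the round window niche, with repeated renewal over a total of 60 min. The control group was the opposite, left ear, which had neither ouabain nor surgery, so drug and operation cannot be told apart in the comparison. Mice whose hearing thresholds changed little after ouabain were left out by the authors, which selects for the injured ears. The modiolus, the central core of the cochlea that holds the nerve, was dissected, and 2 preparations were pooled for each array. Nothing names the animals that went into a pool, so a p-value covers only the spread between such pools, which may be in part technical.

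Spiral ganglion neurons are the sensory neurons that carry sound signals from hair cells to the brainstem, and most of them are type I neurons wrapped in myelin. When a peripheral nerve is injured, its neurons switch on injury transcription factors, its Schwann cells leave the myelinating state and divide, and resident and blood-derived macrophages clear debris of axons and myelin. The acute phase of such a response involves chemokines, receptors for damage signals, lipid handling, matrix remodelling and stress pathways.

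Expression is given throughout as the log2 RMA intensity of the 1 probe set a gene that was brightest over the 12 arrays, and a change as the log2 fold change of ouabain over control with its standard error (SE) and Benjamini-Hochberg adjusted p from limma, with 3 arrays in each group. A gene was taken as higher or lower at an adjusted p under 0.05 with a fold change above 1.5. Because the samples are bulk tissue, fewer cells of a type and less RNA per cell cannot be told apart in any of the values.

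Of 18193 genes, 1367 were higher after ouabain, or 7.51%, and 1467 were lower, or 8.06%. Changes of more than 1 log2 unit were seen in 634 higher and 789 lower genes, and changes of more than 2 units in 151 and 251. Above 3 log2 units there were 38 higher and 44 lower genes, and above 4 units 9 higher and 2 lower. Among the higher genes, 207 had a control mean below a log2 value of 6 and an ouabain mean above it. The reverse passage, from above 6 to below it, was made by 192 of the lower genes. The median SE of a fold change was 0.11 over all genes. Of the higher genes, 778 had several probe sets, and in 10 of them another probe set was called lower. The count was also 10 for another probe set called higher among 905 lower genes.

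**Figure D1:**
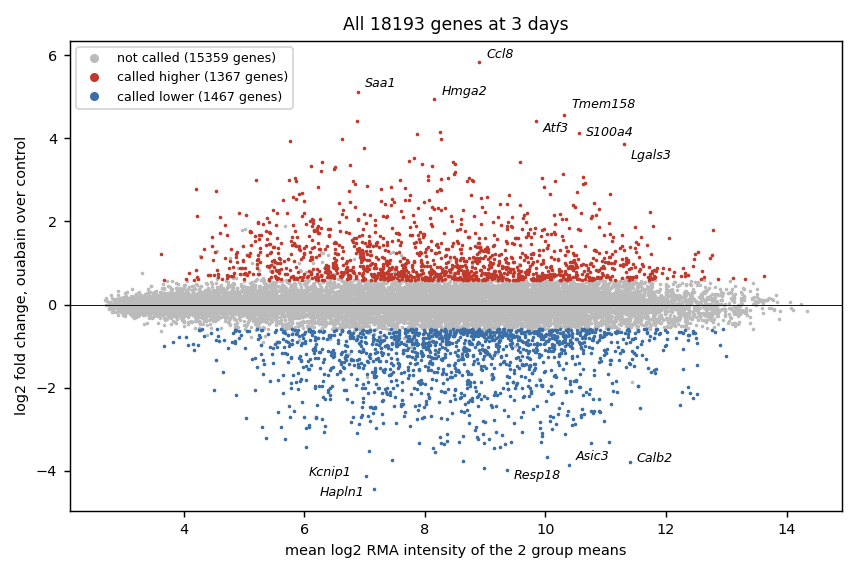
Each point is a gene at 3 days, with the mean log2 RMA intensity of the control and ouabain groups on the horizontal axis and the log2 fold change of ouabain over control on the vertical axis. Red marks the 1367 higher genes, blue the 1467 lower genes and grey the genes not called; the highest point is Ccl8 at 5.83 and the lowest is Hapln1 at -4.44.

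The ouabain arrays were not alike in the size of their response. The median difference from the control mean over the higher genes was 0.80 in ouabain replicate 1, 0.98 in replicate 2 and 1.07 in replicate 3. Over the lower genes, it was -0.86, -1.16 and -1.19. Ouabain replicate 1 was the lowest ouabain array in 1049 of the 1367 higher genes and the highest in 1176 of the 1467 lower genes, so its profile lay closer to control for most genes called. The first principal component of the 6 arrays, with 74.1% of the variance, placed the control arrays between -55.73 and -54.22, ouabain replicate 1 at 32.57 and the other ouabain arrays at 63.01 and 69.37. Replicate 1 of both groups was also the pool with low Xist, the transcript of the inactive X chromosome, which measured 5.94 in control replicate 1 and 5.45 in ouabain replicate 1. It lay between 11.01 and 12.11 in the other 4 arrays. Sex of the pool and the weaker response in that array cannot be told apart, while each group holds 1 such pool. With replicate 1 of both groups left out, 1485 genes were higher and 1596 lower.

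The largest rises included secreted proteins of inflammation and tissue injury. Ccl8, a chemokine that attracts monocytes, measured 5.26, 6.13 and 6.54 in control and 11.48, 11.87 and 12.08 in ouabain arrays. Saa1, an acute-phase apolipoprotein, measured 4.22, 4.41 and 4.36 in control and 8.95, 9.94 and 9.42 in ouabain arrays. In both genes the lowest ouabain array was far above the highest control array. The log2 fold change was 5.83 for Ccl8 (SE 0.41, adjusted p = 1.76e-06) and 5.11 for Saa1 (SE 0.21, adjusted p = 5.47e-08). Saa1 and Saa2 are near-identical copies, so the split of signal between them is uncertain; the Saa2 probe set went from 4.73 to 5.04 in control to 6.74 to 7.28 in ouabain arrays. Saa3, a further family member chosen after its values were seen, measured 5.55 to 6.95 in control and 9.36 to 10.05 in ouabain arrays. Serpina3n, a secreted inhibitor of serine proteases, rose by 4.09 (SE 0.22, adjusted p = 2.71e-07). Lgals3, the galactoside-binding lectin galectin-3 that activated macrophages make in quantity, rose by 3.86 (SE 0.16, adjusted p = 6.37e-08) from control values that were already between 9.09 and 9.54. Clcf1, a cytokine of the interleukin 6 family that signals through the ciliary neurotrophic factor receptor, rose by 3.76 (SE 0.13, adjusted p = 1.74e-08).

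A second set of leading genes acts in the nucleus. Atf3, a stress-induced transcription factor widely used as a mark of nerve injury, measured 7.41, 7.84 and 7.63 in control and 12.06, 11.95 and 12.13 in ouabain arrays. The ouabain arrays lay within 0.2 of each other, and the log2 fold change was 4.42 (SE 0.12, adjusted p = 2.81e-09). Tfap2a, the transcription factor AP-2 alpha of neural crest and its derivatives, measured 6.16, 6.34 and 6.31 in control and 9.87, 10.37 and 10.54 in ouabain arrays. It rose by 3.99 (SE 0.19, adjusted p = 1.44e-07), with 2 of its 3 probe sets called. Nr1h4, the bile acid receptor FXR, rose by 3.92 (SE 0.23, adjusted p = 4.73e-07) from control values of 3.53 to 4.16, below the array medians of 6.01 to 6.04. Hmga2, an architectural chromatin protein of embryonic cells, measured 5.79, 5.47 and 5.78 in control and 9.93, 10.78 and 11.16 in ouabain arrays. All of its 4 probe sets were higher.

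Other leading genes encode membrane proteins and signalling molecules. Tmem158, a membrane protein known as a gene induced by Ras, rose by 4.56 (SE 0.14, adjusted p = 6.22e-09), with all 3 of its probe sets called. Btc, the epidermal growth factor receptor ligand betacellulin, measured 4.72, 4.31 and 4.98 in control and 9.18, 8.88 and 9.17 in ouabain arrays. Duoxa1, which is needed for the maturation of the hydrogen peroxide-producing enzyme dual oxidase 1, rose by 3.99 (SE 0.21, adjusted p = 2.35e-07). S100a4, a small calcium-binding protein of motile cells, had the smallest adjusted p among the named genes, 2.5e-10. It measured 8.48, 8.47 and 8.51 in control and 12.50, 12.62 and 12.74 in ouabain arrays, a rise of 4.14 (SE 0.09). Pbk, a kinase of mitotic cells, rose by 4.14 (SE 0.31, adjusted p = 2.47e-06). Gap43, which growing axons and Schwann cells without axons make, rose by 3.53 (SE 0.37, adjusted p = 2.91e-05).

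**Figure D2:**
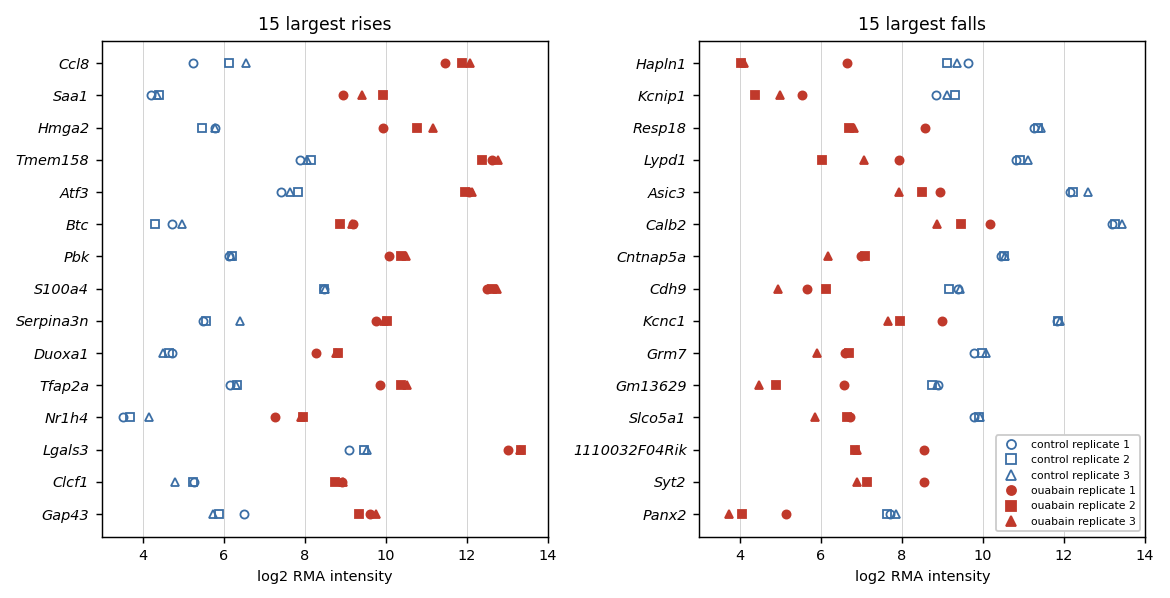
Log2 RMA intensity on each of the 6 arrays for the 15 genes with the largest rises (left) and the 15 with the largest falls (right) at 3 days, with control arrays as open blue and ouabain arrays as filled red symbols, the symbol shape giving the replicate. No ouabain array overlaps a control array in any of the 30 genes, which the choice of genes required and which holds for 43.6% of all genes, and ouabain replicate 1 (red circles) lies apart from the other ouabain arrays for Hapln1, Resp18 and Syt2.

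Several of the largest falls were in ion channels and receptors of neurons. Kcnip1, a calcium-sensing subunit of A-type potassium channels, measured 8.83, 9.30 and 9.12 in control and 5.53, 4.36 and 4.99 in ouabain arrays, a log2 fold change of -4.12 (SE 0.24, adjusted p = 3.97e-07), with 2 of its 4 probe sets called. Kcnc1, the fast potassium channel subunit Kv3.1, fell by 3.66 (SE 0.53, adjusted p = 0.000306). Asic3, a proton-gated sodium channel of sensory neurons, measured 12.15, 12.21 and 12.59 in control and 8.94, 8.50 and 7.92 in ouabain arrays. Its log2 fold change of -3.87 (SE 0.25, adjusted p = 1.01e-06) left a level above the array medians. Grm7, a presynaptic glutamate receptor, fell by 3.55 (SE 0.18, adjusted p = 1.7e-07), with 1 of its 3 probe sets called. Panx2, a pannexin channel of neurons, fell by 3.42 (SE 0.28, adjusted p = 4.62e-06).

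Adhesion and matrix genes also stood among the largest falls. Hapln1, a link protein that joins hyaluronan to proteoglycans in cartilage and in the nets around neurons, had the largest fall, with a log2 fold change of -4.44 (SE 0.65, adjusted p = 0.000304). It measured 9.62, 9.12 and 9.37 in control and 6.65, 4.02 and 4.10 in ouabain arrays, so ouabain replicate 1 kept a higher level than the other ouabain arrays. Cntnap5a, a neuronal cell adhesion molecule of the contactin-associated family, fell by 3.76 (SE 0.18, adjusted p = 1.45e-07), and Cdh9, a synaptic cadherin, fell by 3.75 (SE 0.24, adjusted p = 8.16e-07). Lypd1, a membrane-anchored modulator of nicotinic receptors, fell by 3.94 (SE 0.52, adjusted p = 0.000155). Resp18, a secretory granule protein of neuroendocrine cells, measured 11.27, 11.35 and 11.44 in control and 8.57, 6.70 and 6.82 in ouabain arrays. The long non-coding RNA Gm13629 fell by 3.52 (SE 0.50, adjusted p = 0.000241), the transporter Slco5a1 fell by 3.46 (SE 0.20, adjusted p = 4.53e-07) and 1110032F04Rik fell by 3.45 (SE 0.39, adjusted p = 4.52e-05), the last with 1 of its 2 probe sets called.

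To place the rest of the response, 30 lists of pathway genes were counted, of which 659 of 702 genes were measured. The median log2 fold change over all genes was 0.01. Each count below stands against the shares of all genes, 7.51% higher and 8.06% lower. The lists with the most higher members were those of pattern recognition and Fc receptors, lipid clearance and the actin cytoskeleton, and those with the most lower members were those of calcium binding proteins and neuronal RNA-binding proteins.

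**Figure D3:**
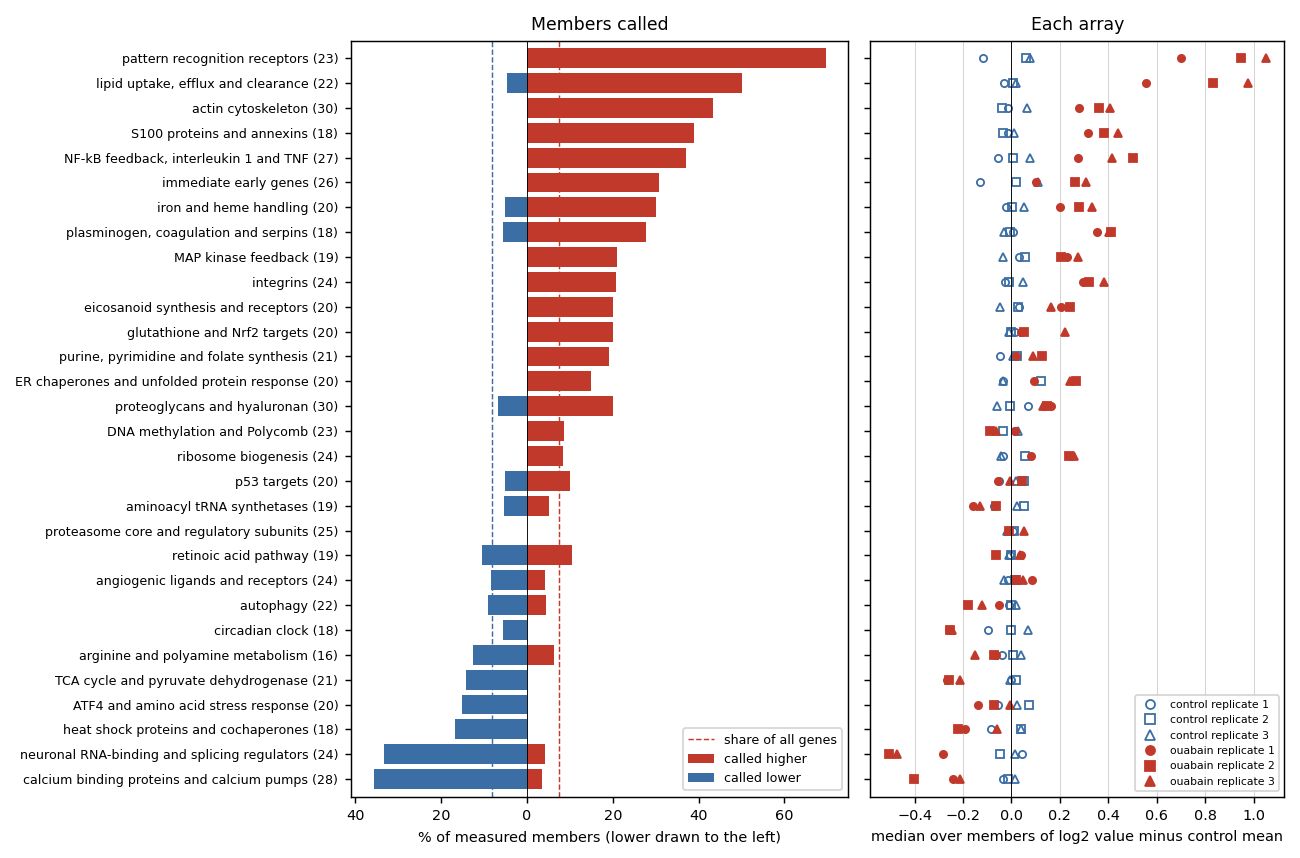
Left, percentage of the measured members of each pathway list (number in brackets) that were called higher (red, to the right) or lower (blue, to the left), with dashed lines at the share of all genes, 7.51% higher and 8.06% lower. Right, for each array, the median over the members of the log2 value minus the control mean; in the top 5 lists the 3 ouabain arrays (filled red) lie above the 3 control arrays (open blue), and ouabain replicate 1 is the lowest of the ouabain arrays.

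Of 23 measured genes of pattern recognition receptors, Fc receptors and their adaptors, 16 were higher and none was lower, with a median log2 fold change of 0.88. Among the higher genes, the call of Clec4a2 was lost whichever array of day 3 was left out. The C-type lectin Clec4d measured 5.30, 5.01 and 5.41 in control and 6.90, 7.70 and 7.26 in ouabain arrays, and rose by 2.05 (SE 0.36, adjusted p = 0.00115). The Fc receptor Fcgr2b, which inhibits signalling on binding antibody complexes, rose by 1.91 (SE 0.12, adjusted p = 5.54e-07), and the activating receptor Fcgr3 rose by 1.83 (SE 0.14, adjusted p = 3.07e-06). Among the Toll-like receptors, Tlr13, Tlr7, Tlr2, Tlr1 and Tlr4 were higher, with log2 fold changes of 1.75, 1.35, 0.88, 0.67 and 0.60, as were Ly96, the partner of Tlr4, with 1.46, and the shared adaptor Myd88, with 0.68. Tlr1 was not called without ouabain replicate 3, nor Tlr4 without control replicate 3 or ouabain replicate 1. Tlr3, Tlr8 and Tlr9 were not called, with values of 0.13, 0.09 and 0.04. All 10 macrophage markers were higher in the same arrays, with a mean level of 7.76 to 8.28 in control and 9.67 to 10.07 in ouabain arrays. Fcgr3 is itself 1 of these markers. Their part in this result, and in the rises of lipid, iron, eicosanoid, integrin and cytoskeleton genes described next, was not tested.

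Of 27 genes of interleukin 1, tumour necrosis factor and feedback on the transcription factor NF-kB, 10 were higher and none was lower, with a median of 0.37. Among them, Ripk3 with 0.65 lost its call without any 1 array of day 3 except ouabain replicate 1. The ligands themselves were not called, with log2 fold changes of 0.14 for Il1a, -0.01 for Il1b and -0.06 for Tnf. Il1rn, the secreted antagonist of the interleukin 1 receptor, measured 4.39, 4.35 and 4.48 in control and 5.31, 6.39 and 6.52 in ouabain arrays, a rise of 1.67 (SE 0.27, adjusted p = 0.000695). The inflammasome genes Casp1, the protease that matures interleukin 1 beta, and Pycard, its adaptor, both rose by 1.39 (SE 0.15 and 0.14, adjusted p = 4.1e-05 and 1.9e-05). Pycard had 1 of its 3 probe sets called. The sensor Nlrp3 had a value of 0.25 and was not called. Tnfrsf12a, the receptor of the TNF family ligand TWEAK, was higher by 1.20, and Bcl3, a nuclear partner of NF-kB, by 1.09.

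The promoters of the NF-kB list were read from RefSeq (build GRCm38.p6, 250 bases before to 50 bases after each start site), because 10 of its members moved together. The letters GGGNNTTCC, a form of the NF-kB site, were looked for on both strands. They were present for 9 of the 25 listed genes with a promoter, or 36.0%, and for 1777 of all 27025 genes with a promoter, or 6.6%. The list was made of genes tied to NF-kB and the letters were chosen to go with it, so a higher share can follow from that choice. Rel, Tnfaip3, Tnip1, Il1r1 and Nlrp3 held the letters and were not called. Of the 10 higher members 4 held them, namely Nfkb2, Nfkbie, Bcl3 and Casp4, whose 120 bases before the start site are shown with the matching letters in capitals.
Nfkb2, chr19:46304617-46304736, plus strand: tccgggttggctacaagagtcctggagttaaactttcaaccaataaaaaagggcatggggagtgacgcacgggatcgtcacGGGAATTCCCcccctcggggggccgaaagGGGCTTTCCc
Nfkbie, chr17:45555580-45555699, plus strand: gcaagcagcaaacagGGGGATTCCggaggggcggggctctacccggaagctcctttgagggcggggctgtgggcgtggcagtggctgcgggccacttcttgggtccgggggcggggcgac
Bcl3, chr7:19822756-19822875, minus strand: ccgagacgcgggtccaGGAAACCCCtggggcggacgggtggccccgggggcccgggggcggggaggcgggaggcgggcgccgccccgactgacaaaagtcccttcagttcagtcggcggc
Casp4, chr9:5308729-5308848, plus strand: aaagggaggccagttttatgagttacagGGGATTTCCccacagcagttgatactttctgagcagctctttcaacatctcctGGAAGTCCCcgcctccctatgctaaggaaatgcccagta
In Nfkb2 the letters begin 39 bases before the start site, where a match on each strand overlaps in a run of 10 bases, and again 10 bases before it. Nfkb2 encodes an NF-kB subunit and rose by 0.62, Nfkbie encodes an inhibitor that holds NF-kB in the cytoplasm and rose by 0.74, and Casp4 encodes the inflammatory caspase that senses lipopolysaccharide and rose from a mean of 5.98 to 6.98. Nfkb2 was not called without control replicate 2, ouabain replicate 2 or ouabain replicate 3. A match of letters is a description of the sequence and not a measured binding site.

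Of 22 measured genes for the uptake and export of lipid, 11 were higher and 1 was lower, with a median of 0.74. Gpnmb, a glycoprotein of lipid-laden phagocytes, measured 5.92, 6.02 and 6.11 in control and 9.58, 9.25 and 9.54 in ouabain arrays, a rise of 3.44 (SE 0.45, adjusted p = 0.000126). The scavenger receptors Cd36 and Msr1 rose by 2.74 (SE 0.28, adjusted p = 2.52e-05) and 2.24 (SE 0.31, adjusted p = 0.000188). Fabp5, which carries fatty acids in the cytoplasm, was higher by 2.22, Axl, a receptor for the clearance of dying cells, by 2.21, Trem2, a lipid-sensing receptor of microglia and macrophages, by 2.13, Plin2, the coat of lipid droplets, by 1.79, and Abca1, the cholesterol exporter, by 1.61. Gas6, the ligand of Axl, was lower, at -0.85. Apoe and Abcg1 were not called, with values of 0.02 and -0.04.

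Iron handling and lipid mediators moved in part. Of 20 iron and heme genes, 6 were higher and 1 was lower. Slc11a1, the metal transporter of phagocyte vacuoles, measured 6.08, 6.16 and 6.25 in control and 7.84, 8.17 and 8.56 in ouabain arrays, a rise of 2.03 (SE 0.16, adjusted p = 3.38e-06). Cd163, the macrophage receptor for hemoglobin bound to haptoglobin, rose by 1.08 (SE 0.15, adjusted p = 0.000256). Tfrc, the transferrin receptor that brings iron into cells, measured 12.16, 12.01 and 12.10 in control and 10.84, 10.48 and 10.45 in ouabain arrays, a fall of the mean from 12.09 to 10.59 (SE of the log2 difference 0.12, adjusted p = 3.54e-06). In all 3 of its probe sets the gene was lower. Of 20 eicosanoid genes, 4 were higher and none was lower. They were Hpgds, the prostaglandin D synthase of immune cells, with 1.45, Ltc4s, which makes leukotriene C4, with 1.28, Alox5ap, the partner of 5-lipoxygenase, with 1.15, and Tbxas1, the thromboxane synthase, with 0.96. Ptgs2, the inducible cyclooxygenase, had a value of 0.81 and was not called.

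Some genes of cell shape and attachment were higher. Of 30 actin cytoskeleton genes, 13 were higher and none was lower, with a median of 0.34; without ouabain replicate 3 the number higher was 8. Capg, which caps actin filaments in macrophages and other motile cells, measured 9.21, 9.54 and 9.61 in control and 10.86, 11.19 and 11.27 in ouabain arrays, a rise of 1.65 (SE 0.13, adjusted p = 3.54e-06). Tagln2, an actin-binding protein, rose by 1.44 (SE 0.16, adjusted p = 3.82e-05) and the tropomyosin Tpm4 by 1.15 (SE 0.11, adjusted p = 1.37e-05). The actins Actb and Actg1 themselves were not called, with 0.11 and 0.03, and neither was the smooth muscle protein Tagln, with -0.58, the lowest value of the list. Of 24 integrins, 5 were higher and none was lower, and 8 were higher without ouabain replicate 1. Itga7, a laminin receptor subunit, measured 6.81, 6.69 and 6.92 in control and 9.67, 10.20 and 10.68 in ouabain arrays, a rise of 3.38 (SE 0.21, adjusted p = 6.59e-07). Itga6, another laminin receptor subunit, was higher by 0.74. Itgb2 and Itgam, which form the complement receptor of leukocytes, rose by 1.69 (SE 0.28, adjusted p = 0.000708) and 1.28 (SE 0.24, adjusted p = 0.00177).

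Of 18 S100 proteins and annexins, 7 were higher and none was lower. Beside S100a4, they included S100a6, a calcium-binding protein that rose by 1.26 (SE 0.07, adjusted p = 4.47e-07) from 11.84 to 11.96 in control to 13.10 to 13.19 in ouabain arrays, and the membrane-binding annexins Anxa7 with 0.99, Anxa2 with 0.93 and Anxa4 with 0.63. S100a8 and S100a9, which neutrophils make, were not called, with -0.08 and -0.19. Of 30 proteoglycan and hyaluronan genes, 6 were higher and 2 were lower, and none was lower without ouabain replicate 2. The heparan sulfate proteoglycan Gpc1 rose by 2.31 (SE 0.10, adjusted p = 7.24e-08). The chondroitin sulfate proteoglycans Vcan and Ncan rose by 2.10 (SE 0.17, adjusted p = 5.28e-06) and 2.09 (SE 0.14, adjusted p = 1.01e-06), with 3 of 8 and 2 of 3 probe sets called. Cd44, the hyaluronan receptor, was higher by 1.52. Of 18 genes of the plasminogen, coagulation and serpin list, 5 were higher and 1 was lower. The lower gene, Serpinf1 with -0.69 (adjusted p = 0.0453), lost its call without any 1 array of day 3 except ouabain replicate 1. Plau, the protease urokinase that activates plasminogen, measured 5.72, 5.59 and 5.45 in control and 7.11, 7.23 and 7.38 in ouabain arrays, a rise of 1.65 (SE 0.15, adjusted p = 1.03e-05), with 1 of its 2 probe sets called. Its receptor Plaur was higher by 0.60, a call that was lost without any 1 array of day 3 other than replicate 1 of either group.

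Of 26 immediate early genes, which encode mostly transcription factors, 8 were higher 3 days after exposure, none was lower and 18 were not called, with a median of 0.27. Fos measured 8.59, 9.53 and 9.46 in control and 11.97, 12.08 and 12.31 in ouabain arrays, a rise of 2.93 (SE 0.26, adjusted p = 8.41e-06). Jun, its partner in the AP-1 complex, was higher by 1.37, and the growth regulator Myc rose by 1.52 (SE 0.14, adjusted p = 9.21e-06). Egr3, Egr1, Klf6 and Ier5 were higher by 1.11, 0.91, 0.89 and 0.87. The orphan receptors Nr4a1, Nr4a2 and Nr4a3 and the activity-regulated gene Arc were not called, with values between -0.07 and 0.06. Of 19 genes of feedback on MAP kinases, 4 were higher and none was lower. Dusp10, a phosphatase of p38 and JNK, measured 7.05, 6.88 and 6.34 in control and 9.99, 10.10 and 10.46 in ouabain arrays, a rise of 3.43 (SE 0.20, adjusted p = 5.03e-07). The ERK phosphatases Dusp5, Dusp6 and Dusp7 were not called, with 0.47, 0.54 and 0.40, and neither were Spry1, Spry2 and Spry4.

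Most genes of stress pathways were not called, and those called went in different directions. The share higher in the endoplasmic reticulum stress list was above the 7.51% of all genes. The shares lower in the amino acid stress and heat shock lists were above the 8.06% of all genes. Each of these shares rested on 3 called members. Of 20 genes of the endoplasmic reticulum stress response, 3 were higher and none was lower, a count that was 1 without ouabain replicate 2 and 5 without ouabain replicate 1. Edem1, which takes misfolded glycoproteins out of folding, measured 8.54, 8.75 and 8.57 in control and 9.24, 9.66 and 9.54 in ouabain arrays, a rise of 0.86 (SE 0.12, adjusted p = 0.000285). Hspa5, the main chaperone of the list, was not called, with 0.11. Of 20 genes of the amino acid stress response, which include its factor Atf4, none was higher and 3 were lower. Atf4 itself was not called, with -0.17. Asns, which makes asparagine, measured 10.18, 10.35 and 10.27 in control and 8.81, 8.42 and 8.32 in ouabain arrays, a log2 fold change of -1.75 (SE 0.15, adjusted p = 6.05e-06). Chac1, which degrades glutathione, fell by 1.53 (SE 0.15, adjusted p = 1.47e-05). Ddit3 and Trib3 were not called, with 0.12 and 0.11.

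The letters TTGCATCA, a form of the C/EBP-ATF response element, stood in the promoters of 4 of 18 listed genes with a promoter, or 22.2%, against 279 of 27025 genes, or 1.0%. Slc7a11, Nupr1 and Fgf21 held them and were not called. Chac1 was the 1 of the 3 lower members that held them, 193 bases before the start site, and its sequence from 220 to 121 bases before the start is shown with the letters in capitals, since a gene with this element was among those that fell.
Chac1, chr2:119351022-119351121, plus strand: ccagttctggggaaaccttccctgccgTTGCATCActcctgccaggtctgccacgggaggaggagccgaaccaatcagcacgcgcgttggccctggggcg
In the other lists searched, the share with matching letters was 83.3% for CCACG and 83.3% for CCAAT in the endoplasmic reticulum stress list (35.5% and 41.1% of all genes), 66.7% for GAANNTTC in the heat shock list (9.0%), 46.2% for TGANTCA, the AP-1 letters, in the plasminogen list (9.0%), 35.3% for TGACNNNGC in the Nrf2 list (3781 of the 27025 genes) and 15.8% for CACGTG in the ribosome biogenesis list (8.1%). All were counted on both strands. Each set of letters, that of the C/EBP-ATF element included, was chosen to go with its list, so a higher share can follow from that choice.

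Heat shock proteins included no higher and 3 lower genes of 18. Hspa4l, a co-chaperone of the Hsp110 family, measured 10.82, 10.85 and 10.86 in control and 9.81, 9.55 and 9.45 in ouabain arrays, a log2 fold change of -1.24 (SE 0.10, adjusted p = 5.21e-06) that all 5 of its probe sets shared. The stress-inducible Hspa1a and Hspb1 were not called, with 0.23 and 0.16. Of 20 p53 targets, 2 were higher and 1 was lower. Gadd45a, a stress-induced regulator of the cell cycle and of DNA repair, measured 8.65, 8.74 and 8.64 in control and 11.67, 11.49 and 11.78 in ouabain arrays, a rise of 2.97 (SE 0.09, adjusted p = 6.22e-09). Plk2, a stress-responsive polo-like kinase, rose by 3.05 (SE 0.17, adjusted p = 3.13e-07), with 1 of its 2 probe sets called. Cdkn1a, the p53-induced cell cycle inhibitor, had a value of -0.34 and Mdm2 one of 0.04, and neither was called. The part of p53 in these changes was not tested.

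Of 20 glutathione and Nrf2 genes, 4 were higher and none was lower. Hmox1, the heme oxygenase, measured 6.75, 6.69 and 6.52 in control and 7.72, 8.47 and 8.06 in ouabain arrays, a rise of 1.43 (SE 0.16, adjusted p = 3.92e-05). Gstp1, a glutathione transferase, rose by 1.12 (SE 0.09, adjusted p = 3.07e-06). Among other usual Nrf2 targets, Nqo1, Gclc and Gclm were not called, with -0.31, -0.33 and -0.18. Txn1 and Srxn1 both had 0.49 (adjusted p = 0.00034 and 0.00184) and Me1 had -0.42 (adjusted p = 0.0106), all short of the fold required. Pgd and Txnrd1, with 0.28 and 0.24, were not called either. None of the 25 proteasome subunits was called by limma, with values from -0.42 to 0.29 and a median of 0.01; 5 subunits passed an unadjusted p under 0.05, and the methods' t-test with its fold threshold called 0. Psmc5 had the largest value, -0.42 (SE 0.08, adjusted p = 0.00257), which was smaller than the fold required. Of 19 aminoacyl tRNA synthetases, 1 was higher and 1 was lower. The higher gene, Qars with 0.61, was not called without ouabain replicate 3, nor the lower gene, Aars with -0.65, without control replicate 3. Gars, Yars and Nars had -0.58, -0.55 and -0.52 (adjusted p = 0.00115, 0.00346 and 0.000318), short of the fold required. No member other than Qars had a rise with an adjusted p under 0.05. Of 22 autophagy genes, 1 was higher and 2 were lower. Wipi1, which binds the growing autophagosome membrane, rose by 0.91 (SE 0.08, adjusted p = 1.11e-05).

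Most genes of growth and metabolism were not called. Of 21 genes of nucleotide and folate synthesis, 4 were higher, a share above the 7.51% of all genes, and none was lower. Rrm2, the S-phase subunit of ribonucleotide reductase, measured 6.82, 6.62 and 7.19 in control and 9.09, 9.62 and 10.21 in ouabain arrays, a rise of 2.76 (SE 0.64, adjusted p = 0.00683). Tk1, the thymidine kinase of dividing cells, rose by 2.21 (SE 0.39, adjusted p = 0.00119), and Mthfd1l, an enzyme of mitochondrial folate metabolism, by 1.48 (SE 0.20, adjusted p = 0.000206). The enzymes of purine synthesis Ppat, Gart, Paics and Atic were not called, with values between -0.22 and 0.06. Of 24 ribosome biogenesis genes, 2 were higher, 1 without control replicate 1 or control replicate 3, and none was lower. Nhp2, a protein of the small nucleolar particles that modify ribosomal RNA, rose by 1.02 (SE 0.10, adjusted p = 1.86e-05). Of 23 DNA methylation and Polycomb genes, Uhrf1, which brings the maintenance methyltransferase to replicating DNA, rose by 2.85 (SE 0.45, adjusted p = 0.000517) and Ezh2, the methyltransferase of Polycomb repressive complex 2, rose by 1.48 (SE 0.15, adjusted p = 2.47e-05), and none fell.

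Of 21 genes of the tricarboxylic acid cycle and pyruvate dehydrogenase, none was higher and 3 were lower, with a median of -0.29. Pdhb, a subunit of pyruvate dehydrogenase, measured 12.26, 12.27 and 12.18 in control and 11.61, 11.44 and 11.51 in ouabain arrays, a log2 fold change of -0.71 (SE 0.08, adjusted p = 2.8e-05). The other lower genes, Idh3a and Sdha, had values of -0.60 and -0.59, close to the fold required; Idh3a was not called without ouabain replicate 3, nor Sdha without ouabain replicate 2. Sdha had 1 of its 4 probe sets called. Of 16 arginine and polyamine genes, 1 was higher and 2 were lower. Arg1, the arginase of repair macrophages, measured 4.39, 4.45 and 4.46 in control and 7.58, 9.01 and 6.71 in ouabain arrays, a wide spread that gave a rise of 3.33 with an SE of 0.78 (adjusted p = 0.0076). Nos1, the neuronal nitric oxide synthase, fell by 2.23 (SE 0.18, adjusted p = 4.18e-06), with 2 of its 4 probe sets called. Slc7a2, a transporter of cationic amino acids, fell by 1.10 (SE 0.09, adjusted p = 6.16e-06). Nos2, the inducible synthase of inflammatory macrophages, had a value of -0.01 and was not called.

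Of 28 calcium binding proteins and pumps, 10 were lower, 1 was higher and 17 were not called, with a median of -0.19. In the same arrays 10 of 12 neuronal markers were lower. Calb2, the calcium buffer calretinin, measured 13.19, 13.26 and 13.42 in control and 10.18, 9.47 and 8.87 in ouabain arrays, a log2 fold change of -3.78 (SE 0.25, adjusted p = 1.07e-06). Atp2b3, a calcium pump of the plasma membrane, fell by 3.30 (SE 0.44, adjusted p = 0.000163). Vsnl1, a neuronal calcium sensor, fell by 3.33 (SE 0.90, adjusted p = 0.0168), with ouabain values of 10.75, 7.59 and 8.94; it was not called without ouabain replicate 2 or ouabain replicate 3. Hpca, another neuronal calcium sensor, was higher by 1.06. Of 24 neuronal RNA-binding and splicing regulators, 8 were lower, 1 was higher and 15 were not called, with a median of -0.43; the higher gene was not called in 4 of the 6 fits that left out an array, without control replicate 1 or 3 or without ouabain replicate 2 or 3. Elavl4, which stabilises neuronal messenger RNAs, measured 11.93, 11.91 and 11.97 in control and 10.37, 9.48 and 9.11 in ouabain arrays, a log2 fold change of -2.28 (SE 0.31, adjusted p = 0.000186). Rbfox1, a regulator of neuronal splicing, fell by 2.20 (SE 0.21, adjusted p = 1.61e-05). The higher gene was Ptbp3, with 0.59.

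Vascular, retinoic acid and clock genes were called at shares close to those of all genes, 7.51% higher and 8.06% lower. The same held for p53 targets, aminoacyl tRNA synthetases and autophagy genes. It also held for the higher members of the ribosome biogenesis list and of the DNA methylation and Polycomb list. Of 24 angiogenic ligands and receptors, 1 was higher and 2 were lower, and Vegfa was not called, with -0.28. Angpt2, an antagonist of the endothelial receptor Tek, fell by 0.90 (SE 0.10, adjusted p = 3.47e-05), with 1 of its 2 probe sets called. Of 19 retinoic acid genes, 2 were higher and 2 were lower. Aldh1a3, which makes retinoic acid, measured 11.42, 11.50 and 11.44 in control and 9.15, 9.19 and 8.93 in ouabain arrays, a log2 fold change of -2.36 (SE 0.19, adjusted p = 4.46e-06), and the retinoid receptor Rxrg fell by 1.39 (SE 0.16, adjusted p = 5.37e-05). Of 18 circadian clock genes, 1 was lower, Cry2 with -0.59, which was not called without control replicate 2 or ouabain replicate 3. The median was -0.24.

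Markers of other cell types gave the background of these changes. Mean levels over the neuron markers lay between 11.45 and 11.59 in control and at 10.47, 8.85 and 9.14 in ouabain arrays, so ouabain replicate 1 kept the highest level. The labelled tissue was matched in control arrays by high levels of Nefl, the light neurofilament, between 13.56 and 13.61, and of Mbp, a myelin protein, between 13.80 and 13.92. Markers of other cochlear tissue were bright there too, with control means of 14.05 for Otos of the lateral wall and 13.12 for Epyc of supporting cells. The fibroblast marker Apod had 14.23 and the chondrocyte marker Cnmd 12.81, so bright markers were not limited to those of nerve. Of 8 markers of mature myelinating Schwann cells, 3 were lower, Drp2, Ncmap and Egr2, while Mbp was not called, with -0.13; Egr2 was not called without control replicate 2 or ouabain replicate 1. No marker of neutrophils, T and NK cells, B cells, erythroid cells, hair cells, lateral wall, osteoblasts, chondrocytes, fibroblasts, endothelium or skeletal muscle was called by limma. Between 0 and 3 members of each of these lists passed an unadjusted p under 0.05, and the methods' t-test with its fold threshold called 0 in each. Neutrophil markers were present, with S100a8 at 12.69 to 12.84 in control and 12.18 to 13.10 in ouabain arrays, and the bone matrix gene Dmp1 lay between 12.56 and 13.09. The source of these transcripts was not tested. Markers of B cells, T and NK cells and mast cells had mean levels of at most 5.17. Of 10 astrocyte markers 3 were higher, Gfap, Aldh1l1 and Aqp4 with 1.89, 0.70 and 0.67, and of 9 oligodendrocyte markers 2 were higher, Olig1 and Olig2 with 1.24 and 0.73. Of 9 supporting cell markers 2 were lower, Prox1 and Lgr5 with -1.84 and -1.41. Single members were called among the markers of platelets (Pf4, 1.09), osteoclasts (Atp6v0d2, 1.04) and pericytes (Mcam, 1.46, and in the other direction Myh11, -0.99). Of these calls, those of Pf4, Aldh1l1, Aqp4, Olig2 and Atp6v0d2 were lost with 1 array of day 3 left out. Pf4 had 0.81 (adjusted p = 0.0509) without control replicate 3 and 0.92 (adjusted p = 0.0562) without ouabain replicate 2. Aldh1l1 was lost without ouabain replicate 3, Aqp4 without replicate 3 of either group, Olig2 without replicate 2 or 3 of either group, and Atp6v0d2 without control replicate 1, control replicate 3 or ouabain replicate 3. Kit fell among the mast cell markers, with -0.78, while their defining proteases Tpsab1 and Cpa3 were not called, with -0.06 and -0.07.

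**Figure D4:**
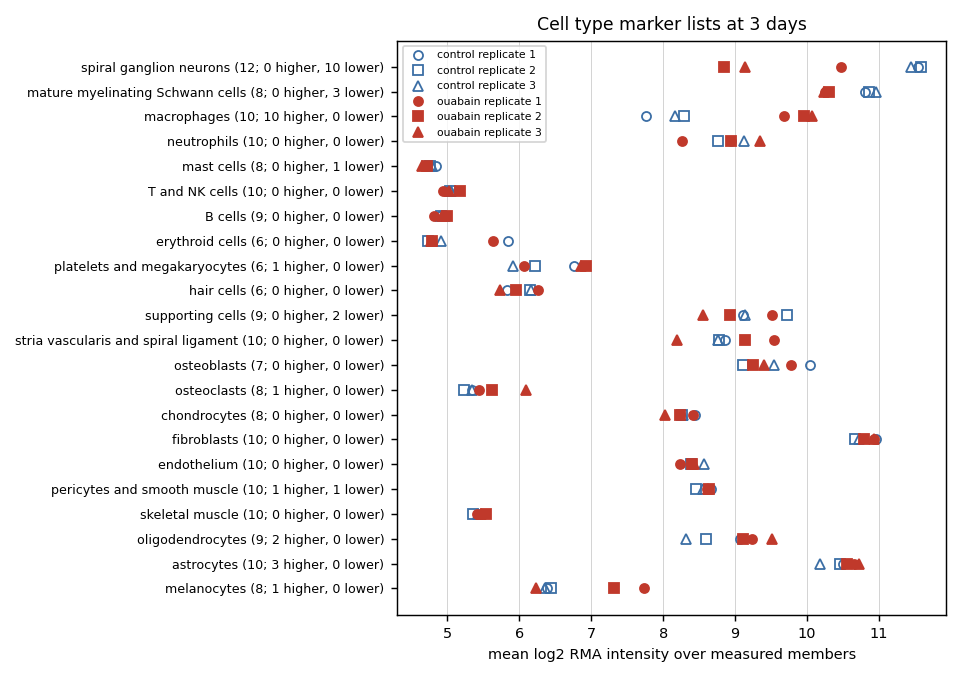
Mean log2 RMA intensity over the measured members of each marker list on the 6 arrays of day 3, with control arrays as open blue and ouabain arrays as filled red symbols and the number of members called beside each name. The neuron list is lower and the macrophage list higher in every ouabain array than in any control array; the lists of stria vascularis and spiral ligament and of melanocytes differ widely among the ouabain arrays.

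Among the melanocyte markers, Tyrp1, an enzyme of pigment synthesis, stood alone. It measured 4.52, 4.82 and 4.65 in control and 7.84, 7.92 and 7.88 in ouabain arrays, a rise of 3.22 (SE 0.16, adjusted p = 1.58e-07) in all 3 of its probe sets. The related enzyme Dct measured 10.61, 9.64 and 5.34 in the same ouabain arrays and 7.49 to 8.00 in control arrays, and the pigment granule protein Pmel measured 7.35 to 8.01 in ouabain and 7.58 to 8.11 in control arrays. Neither was called, and the ouabain array with the lowest Dct had the same Tyrp1 as the others.

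The response at 3 days was set against that at 7 days, which had its own 3 ouabain and 3 control arrays, by testing the difference of the responses. The difference was called in 213 genes, or 1.17% of all genes, and was above 0 in 168 of them and below 0 in 45. With 1 array of day 3 left out the number was between 103, without ouabain replicate 2, and 360, without ouabain replicate 1; without control replicates 1, 2 and 3 it was 124, 133 and 129. Of the 168 genes, 122 were higher at 3 days. Control nerve of 7 days against that of 3 days gave 3 genes. Xist measured 5.63, 5.71 and 10.63 in control and 5.08, 5.48 and 10.15 in ouabain arrays of day 7. Pools with low Xist were thus more frequent than at day 3. Day and sex of the pools cannot be fully told apart in the difference of responses. With the sex of the pool as a term, 197 genes were called. Hmga2 had the largest difference above 0, 4.72 (SE 0.34, adjusted p = 6.65e-05), with a response of 4.95 at 3 days and 0.23 at 7 days. The cell division genes Pbk, Dscc1, Kif11 and Pclaf had differences of 3.44, 3.10, 2.98 and 2.97. The call for Pclaf was lost without any 1 of the arrays of day 3 except ouabain replicate 1, and that for Dscc1 without ouabain replicate 2 (adjusted p = 0.0528). In these genes control replicate 1 of day 7 was the highest control array; without it and ouabain replicate 1 of day 3 the differences were 3.09, 2.97, 2.62 and 2.63. Tyrp1 had a response of 0.27 at 7 days, so that its difference was 2.96 (adjusted p = 7.77e-05). The predicted gene Gm16316 had a difference of 3.08 (adjusted p = 7.05e-05).

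Differences below 0, in 45 genes, mark a response that was lower at 3 days than at 7 days. Clca3a2, a secreted protein of the calcium-activated chloride channel regulator family, measured 3.45, 3.35 and 3.62 in control and 3.78, 3.59 and 3.50 in ouabain arrays of day 3, and its response was 5.97 at 7 days, a difference of -5.82 (adjusted p = 8.61e-07). The related Clca3a1 had 0.30 at 3 days and 2.09 at 7 days. Its values were low, at 4.22 to 4.66 at day 3 and 5.82 to 6.31 in ouabain arrays of day 7. Signal that Clca3a1 may share with Clca3a2 was not separated. Gcg, the glucagon precursor gene, was already higher at 3 days, by 2.99 (SE 0.18, adjusted p = 5.91e-07), and had a response of 5.54 at 7 days. Klk8, a serine protease known as neuropsin, went from a response of 1.42 to one of 3.62, and the secreted hormone stanniocalcin 2 (Stc2) from -0.07 to 1.71. Htr2c, a serotonin receptor, was lower, with responses of -2.69 (SE 0.15, adjusted p = 3.23e-07) at 3 days and -1.34 at 7 days, with 1 of its 2 probe sets called at 3 days.

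**Figure D5:**
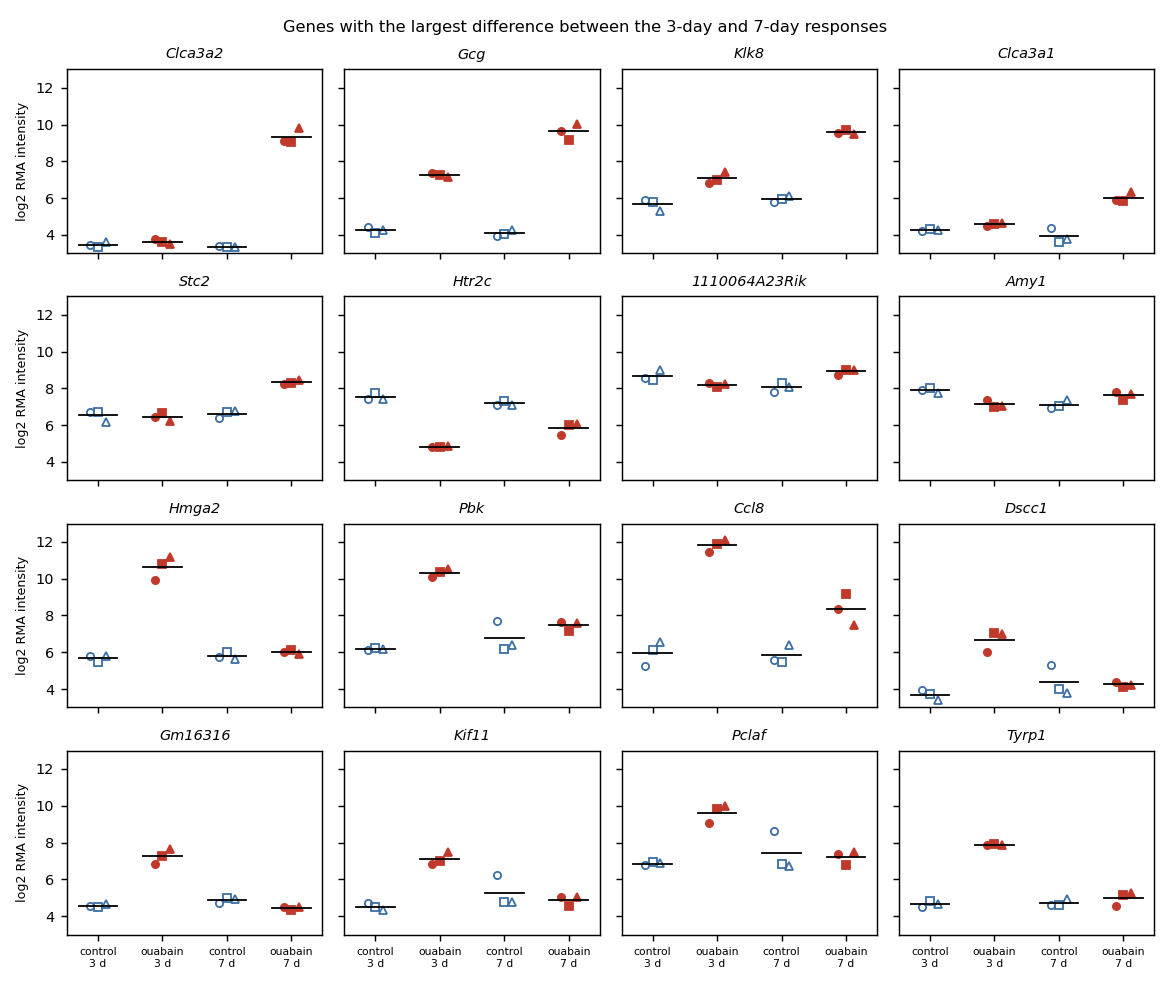
Log2 RMA intensity on each of the 12 arrays for the 8 genes with the largest difference of responses below 0 (upper rows) and above 0 (lower rows), with control arrays as open blue and ouabain arrays as filled red symbols, the symbol shape giving the replicate and black lines the group means. Hmga2 and Tyrp1 lie at control level at 7 days, while Clca3a2 lies at control level at 3 days.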

How the data were processed

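RNA of pooled modiolus preparations was hybridised to Affymetrix mouse genome arrays, 3 per group. The authors normalized the arrays with RMA in the Affymetrix Expression Console (MAS5 is also named, and no version is given), and deposited 1 log2 intensity per probe set and array, which was used here as it stood. Array medians ran from 6.01 to 6.04 at day 3. Precision is limited by having 3 arrays a group.

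From the 45101 probe sets, the 64 array controls were removed. Of the 45037 tested, 34945 carried exactly 1 gene symbol (18193 genes), 932 several and 9160 none. Group means of all 12 arrays were modelled in limma 3.58.1 under R 4.3.3 (8 residual degrees of freedom), with Benjamini-Hochberg adjustment over all tested probe sets, and tested on simulated data. Calls required both a change of over 1.5 times and an adjusted p under 0.05. Figures were drawn with matplotlib 3.10.9 in Python 3.11.15.

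The members and lists were chosen with earlier results of these data known, so no list was tested. Genes were named by rule: the 15 largest rises and falls without overlap and with a group mean above 6, up to 3 called members of a pathway list, the 8 largest day differences each way and the brightest member of a marker list. Other list members were named after their values were seen. Same-numbered control and ouabain arrays of day 3 had correlations of their deviations from group means of 0.33, 0.09 and 0.18. Other combinations ran from -0.27 to 0.15. No label names pairs, so numbers were not taken as pairs, although same-numbered pools may share mice. Alternatives covered another fit, fold threshold, scaling, filter, weighting, the methods' t-test, a replicate block and arrays left out. The added settings, without replicate 1 of both groups and with the sex of the pool as a term, were chosen after seeing the data. The 7-day response served only for the difference of responses, while the 7-day arrays also entered the shared spread and the choice of probe set.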

Additional observations from a re-analysis of the deposited data

Results flagged for a closer look

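The responses at 3 and 7 days differed in 213 genes by the test of the difference itself, in limma over all probe sets, a number that lay between 103 (without ouabain replicate 2) and 360 (without ouabain replicate 1) with 1 array of day 3 left out. The sex make-up of the pools also differed between the days. Values are the log2 response at 3 days minus that at 7 days, with the adjusted p where a gene was not given one above.

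Among inflammatory and injury genes, the difference was 3.32 for Ccl8 (adjusted p = 0.0222), 2.44 for Saa1 (adjusted p = 0.00272), 1.97 for S100a4 (adjusted p = 2.96e-05), 1.60 for Serpina3n (adjusted p = 0.0367), 1.22 for Lgals3 (adjusted p = 0.0308) and 1.18 for Clcf1 (adjusted p = 0.013). All of them were higher at both days, and their rise was larger at 3 days. The difference for Ccl8 missed the threshold with a replicate block (adjusted p = 0.0626) and with a mean-variance trend (adjusted p = 0.0509), and also without control replicate 1, ouabain replicate 2 or ouabain replicate 3 of day 3.

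Among genes of growth, stress and metabolism, the difference was 1.61 for Plk2 (adjusted p = 0.00858), 0.95 for Myc (adjusted p = 0.0471), 0.91 for Nhp2 (adjusted p = 0.0119), 0.69 for Gstp1 (adjusted p = 0.0237), 0.66 for Idh3a (adjusted p = 0.026), 2.32 for Cd36 (adjusted p = 0.0198) and 1.35 for Aldh1a3 (adjusted p = 0.0445). For Idh3a and Aldh1a3 the fall was smaller at 3 days, with responses of -0.60 and -2.36 against -1.26 and -3.71 at 7 days. Dusp4, an ERK phosphatase, had a difference of 1.42 (adjusted p = 0.0279), with responses of 0.76 at 3 days and -0.66 at 7 days.

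The largest differences above 0 were 4.72 for Hmga2, 3.44 for Pbk, 3.10 for Dscc1, 3.08 for Gm16316, 2.98 for Kif11, 2.97 for Pclaf and 2.96 for Tyrp1. The largest below 0 were -5.82 for Clca3a2, -2.55 for Gcg, -2.20 for Klk8, -1.79 for Clca3a1, -1.78 for Stc2, -1.36 for Htr2c, -1.33 for 1110064A23Rik and -1.26 for Amy1, an amylase. The call for Amy1 was lost when any 1 array of day 3 was left out, except control replicate 3 and ouabain replicate 1, and that for 1110064A23Rik without ouabain replicate 2 (adjusted p = 0.0576).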

How the results depend on the processing

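No gene called at 3 days was called in the opposite direction in any setting run. Against 1367 higher and 1467 lower genes, no fold threshold gave 2732 and 2678, a fold above 2 gave 634 and 789, and a test against a fold of 1.5 (treat) gave 522 and 681. Leaving out 1 array of day 3 at a time gave 1216 to 1539 higher and 1336 to 1609 lower genes. Other settings stayed within 1.5 times, among them the fit on day 3 alone (1381 and 1456), the methods' t-test with an unadjusted p (1354 and 1435) and with an adjusted p (1003 and 1066), and subtraction of the 75th percentile (1514 and 1358), which moved the balance toward higher genes. A replicate block gave 1385 and 1478. Among the genes and list members called at 3 days and named here, it changed only the call of Olig2 (adjusted p = 0.0918). The sex of the pool as a term gave 1378 and 1465. Same-numbered samples were not taken as pairs, since ouabain replicate 2 correlated better with control replicate 3 (0.15) than with control replicate 2 (0.09). All same-numbered correlations of day 3 were above 0, and Xist was low or high alike in same-numbered pools. Such pools may therefore come from the same mice.

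The 213 differences of responses were the least stable count, at 138 with a fold above 2, 156 with the replicate block, and 103 to 360 with 1 array of day 3 left out. The lowest was without ouabain replicate 2 and the highest without ouabain replicate 1, while control replicates 1, 2 and 3 gave 124, 133 and 129 when left out. Of 112 named genes called at 3 days, 87 kept the call in every setting other than another fold threshold. Of 109 further called list members, 66 kept the call in every setting but the fold thresholds. Losses of named genes were mostly with the methods' t-test after adjustment, or in genes near the fold threshold such as Stip1, Mthfd2, Cry2, Ulk1, Noc4l, Pdia6 and Sdf2l1. With 3 arrays a group, changes near the fold threshold cannot be settled.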

Other observations

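Erythroid and osteoblast markers stood higher in replicate 1 of both groups than in the other arrays, a difference that was not tested. The mean level of the erythroid markers was 5.85 in control replicate 1 and 5.64 in ouabain replicate 1, the pools with low Xist, and lay between 4.74 and 4.91 in the other 4 arrays of day 3. The osteoblast markers had mean levels of 10.04 and 9.78 in these pools and of 9.10 to 9.54 in the others.

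Markers of stria vascularis and spiral ligament differed more among the ouabain arrays, at 9.54, 9.14 and 8.19, than among the control arrays, at 8.76 to 8.86. The melanocyte markers had the same order, at 7.74, 7.32 and 6.23 against 6.35 to 6.45. Acp5, the tartrate-resistant phosphatase of osteoclasts and some macrophages, measured 4.63 to 4.80 in control and 5.62, 6.30 and 7.96 in ouabain arrays, and was not called, although the groups did not overlap.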
